A study of Mus musculus with 12 samples.

Results

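The TALE homeobox genes Pbx2, Pbx3, Pbx4, Meis1, Meis2, Meis3, Pknox1 and Pknox2 were described across WT and Faf2 KO neural progenitor cells with and without all-trans retinoic acid (RA). These 8 genes were taken by gene name from a deposited table of 57010 genes, and all 8 were among the 16502 genes that passed the filter on low counts. Other Pbx genes were not analysed here. The cells were NE-4C, a mouse line from the embryonic day 9 brain in which p53 is deleted, so the loss of p53 was shared by all groups. WT NO and KO NO cells were collected without induction, and WT RA and KO RA cells received 1 µM RA for 24 h and were collected on day 3. The KO line carries a CRISPR/Cas9 deletion within Faf2, which encodes a membrane protein of the endoplasmic reticulum, and was raised from picked colonies, so genotype and line cannot be told apart. RA treatment and the day of collection likewise cannot be told apart. Each group held 3 libraries, made from 3 independent passages.

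TALE proteins carry a homeodomain with a 3-amino-acid loop extension between its first helices, and they bind DNA together with other homeodomain proteins. Pbx proteins pair with Hox proteins on shared sites. Meis and Pknox (Prep) proteins bind Pbx through their amino-terminal region, and this contact holds Pbx in the nucleus. In the embryonic hindbrain such complexes take part in the control of Hox genes, and RA is known to raise Meis expression in several cell types.

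The stretch of the homeobox that sets these genes apart was read from the canonical coding sequences on GRCm39. Each segment below runs 5′ to 3′ over 28 codons (84 bases), and the coordinates include the intron that lies within it. The capitals mark the codons of the loop extension at the start and some codons within the DNA recognition helix at the end.
Pbx2 (chr17:34813629-34813795, + strand): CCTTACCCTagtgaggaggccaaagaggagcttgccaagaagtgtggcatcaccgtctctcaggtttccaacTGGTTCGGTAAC
Pbx3 (chr2:34068334-34094854, - strand): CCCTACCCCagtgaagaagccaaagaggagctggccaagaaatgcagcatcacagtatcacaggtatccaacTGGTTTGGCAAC
Pbx4 (chr8:70319191-70322699, + strand): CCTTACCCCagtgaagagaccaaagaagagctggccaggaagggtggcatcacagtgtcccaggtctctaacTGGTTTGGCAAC
Meis1 (chr11:18835642-18855762, - strand): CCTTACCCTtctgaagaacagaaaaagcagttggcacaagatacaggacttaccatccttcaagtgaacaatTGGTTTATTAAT
Meis2 (chr2:115699275-115752226, - strand): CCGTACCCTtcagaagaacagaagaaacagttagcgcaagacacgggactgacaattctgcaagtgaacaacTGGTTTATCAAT
Meis3 (chr7:15917719-15917972, + strand): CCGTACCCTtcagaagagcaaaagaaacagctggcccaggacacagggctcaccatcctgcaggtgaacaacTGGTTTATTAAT
Pknox1 (chr17:31821763-31822170, + strand): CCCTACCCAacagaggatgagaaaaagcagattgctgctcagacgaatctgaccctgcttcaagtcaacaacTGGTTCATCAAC
Pknox2 (chr9:36805785-36806680, - strand): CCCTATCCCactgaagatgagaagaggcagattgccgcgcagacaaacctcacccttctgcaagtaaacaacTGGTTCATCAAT
Within a family the segments were 82.1% to 84.5% identical over 7 pairs. Meis and Pknox segments were 64.3% to 70.2% identical over 6 pairs, and Pbx segments were 51.2% to 61.9% identical to those of the other families over 15 pairs. The longest run of identical bases between the canonical transcripts of any pair was 28 bases, between Meis2 and Meis3. The genes lie on 6 chromosomes. Pbx2 (chr17:34810240-34816375) and Pknox1 (chr17:31783674-31826696) share chromosome 17, and Pbx3 (chr2:34061469-34263154) and Meis2 (chr2:115693062-115896341) share chromosome 2. Meis1 (chr11:18829817-18969749), Meis3 (chr7:15909015-15920439), Pbx4 (chr8:70284110-70325822) and Pknox2 (chr9:36801548-37059214) stand alone on theirs. Exons of Gpsm3 on the same strand overlap Pbx2, with at most 50.1 counts in a library, and antisense G630016G05Rik overlaps Meis2 with at most 50.4 counts. Since the strand setting of the counting is not given in the sources used here, such reads could not be told apart.

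Library totals ranged from 17370069 to 30738717 estimated counts. KO RA replicate 3 stood apart, with a TMM factor of 0.394 against 0.872 to 1.28 in the other libraries and 62.5% of counts in its 100 highest genes against 37.1% to 50.4%. Its share of mitochondrial counts was 23.5%, against 9.10% to 17.7%. Results are therefore given with and without it. Adjusted p-values are Benjamini-Hochberg values of the quasi-likelihood test in edgeR unless another tool is named. The targeted gene, Faf2, was at 50.01, 38.8 and 36.0 CPM in WT NO and at 21.0, 21.7 and 25.4 CPM in KO NO. In WT RA it was at 35.1, 37.9 and 49.1 CPM, and in KO RA at 36.1, 34.3 and 18.7 CPM. The KO NO libraries were all below the WT NO libraries, whereas the RA groups overlapped (log2 fold change −0.87, SE 0.27, adjusted p = 0.179 for KO NO against WT NO; adjusted p = 0.0111 without KO RA replicate 3). Over the 648 genes tested on chromosome 13, where Faf2 is located, the KO libraries were lower at the median as well (−0.36 without induction and −0.15 after RA, log2 scale), and the part of this shift in the Faf2 values was not tested. Counts over a whole gene do not test a deletion within it. Of the progenitor markers, Nes, Sox2, Otx2 and Cdh2 were between 19.4 and 163 CPM in all libraries, but Sox1 was at most 0.813 CPM in WT NO and Pou5f1, a pluripotency gene, was at 1149 to 2278 CPM there.

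CPM here are estimated counts that edgeR scales to a common library total with TMM factors. Orders and overlaps of libraries refer to these values, and some differ when libraries are scaled by their totals alone. The counts were taken as corrected for gene length, which was read from the values and is not stated in the sources used here, and the order of levels between genes rests on this. In WT NO the order of mean levels was Pbx3 at 61.6 CPM, Pbx2 at 50.9 CPM, Meis2 at 28.9 CPM, Pknox2 at 20.4 CPM, Meis1 at 10.1 CPM, Pknox1 at 6.58 CPM, Meis3 at 6.13 CPM and Pbx4 at 3.09 CPM. Neighbours whose ranges overlapped were Meis2 with Pknox2, Meis1 with Pknox1, Pknox1 with Meis3, and Meis3 with Pbx4. In WT RA Pbx2 (78.4 CPM) and Meis2 (67.4 CPM) led with overlapping ranges, followed by Pbx3 (46.9 CPM) and Meis1 (26.3 CPM). In KO NO Pbx3 (43.4 CPM) stood above Pbx2 (32.6 CPM) without overlap, and Meis1 (3.05 CPM) and Pbx4 (2.90 CPM) were last with overlapping ranges. In KO RA Meis2 (70.8 CPM) and Pbx3 (62.4 CPM) led with overlapping ranges, and Meis1 (41.7 CPM) and Pbx2 (35.1 CPM) overlapped as well. Pknox1 and Pbx4 stayed below 11 CPM in every library. The panels of levels by library show all values.

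**Figure D1:**
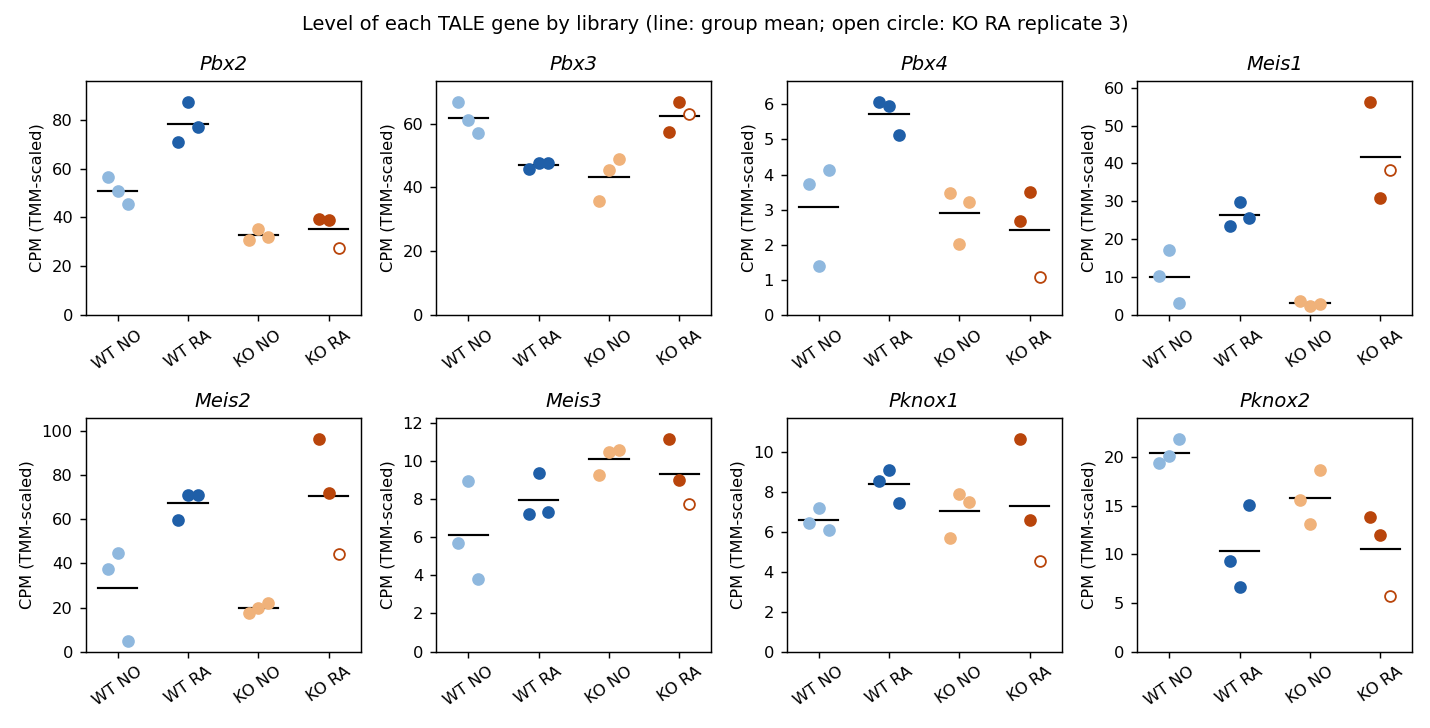
Level of each of the 8 genes in CPM (TMM-scaled, linear axis from 0) in the 3 libraries of WT NO, WT RA, KO NO and KO RA, 1 point per library, with a line at the group mean and KO RA replicate 3 as an open circle. Pbx2 was lower in KO libraries than in WT libraries under both conditions, and Meis1 ranged from 2.37 CPM in KO NO to 56.2 CPM in KO RA.

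With all 12 libraries, Pbx2 was the only one of the 8 genes that passed the edgeR test between genotypes. It was at 56.7, 50.9 and 45.3 CPM in WT NO and at 30.7, 35.4 and 31.9 CPM in KO NO. In WT RA it was at 70.8, 87.2 and 77.3 CPM and in KO RA at 39.1, 39.0 and 27.3 CPM. All KO libraries lay below all WT libraries of both conditions. After RA, Pbx2 was lower in KO than in WT by a log2 fold change of −1.16 (SE 0.21, a ratio of 0.448; edgeR adjusted p = 0.0253), and this value was −1.01 (adjusted p = 0.00282) without KO RA replicate 3. The call was lost without WT RA replicate 1, 2 or 3 (edgeR adjusted p = 0.0938, 0.103 and 0.112) and without KO NO replicate 2 (0.0599), at log2 fold changes of −1.23 to −1.08. Without induction the log2 fold change was −0.64 (SE 0.20, edgeR adjusted p = 0.194), and it passed the edgeR test without KO RA replicate 3 (−0.63, adjusted p = 0.0106) and on the 6 libraries of these groups alone (adjusted p = 0.0412), as well as by DESeq2 (adjusted p = 0.00102) and limma-voom (adjusted p = 0.00086), which is 4 of 20 alternative settings. The RA response in WT was 0.62 (SE 0.20, edgeR adjusted p = 0.235; adjusted p = 0.0111 without KO RA replicate 3), with all WT RA libraries above all WT NO libraries. In KO it was 0.11 and the ranges overlapped, and its sign turned to −0.058 when libraries were scaled by their totals alone. The difference between these RA responses was −0.51 (SE 0.29, edgeR adjusted p = 0.648).

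Pbx2 and Pknox1 lie on chromosome 17, whose genes as a whole were lower in KO. Over its 794 tested genes the median log2 fold change was −0.47 in KO NO against WT NO and −0.46 in KO RA against WT RA, and 84.8% and 71.2% of the genes were lower. With RA against NO the chromosome's median was −0.02 in WT and 0.05 in KO. Within 1000000 bases on each side of Pbx2, 85 genes were tested, and their median was −0.51 without induction and −0.61 after RA, against −0.64 and −1.16 for Pbx2 itself. Of the chromosome's genes, 267 were at or below Pbx2 without induction and 95 after RA. For Pknox1, whose log2 fold changes were 0.10 (SE 0.29) and −0.20 (SE 0.29), 87.9% and 64.6% of the chromosome's genes were at or below it, and its difference from the chromosome's median was not tested. The cause of the lower median was not tested, and its part in the Pbx2 difference was not tested. A change in the number of cells and in RNA per cell cannot be told apart in such bulk samples.

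**Figure D2:**
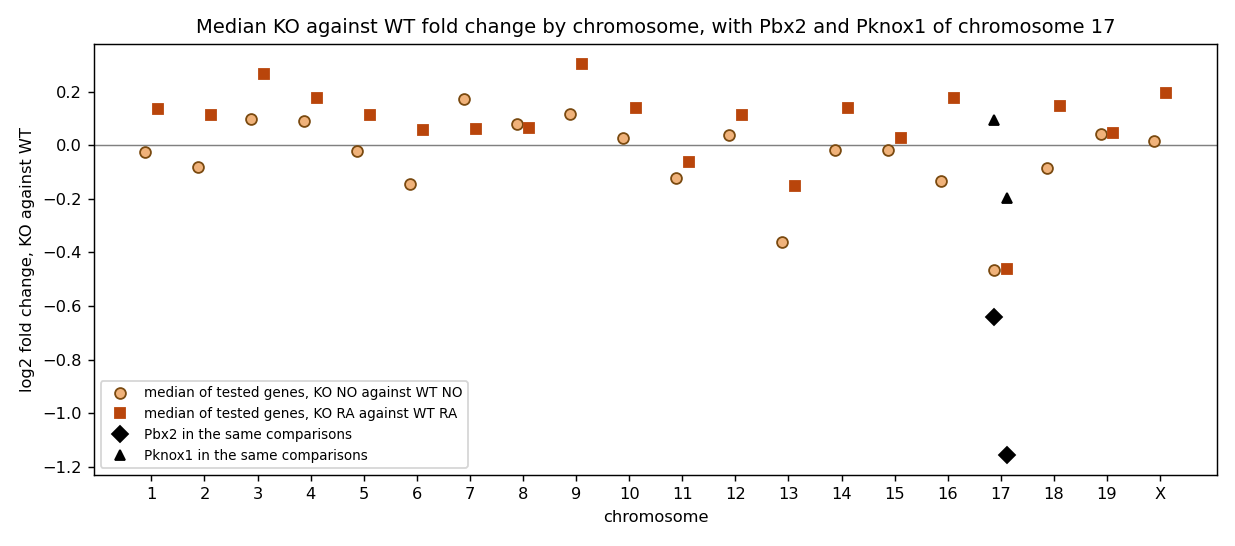
Median log2 fold change of the tested genes of each chromosome (19 autosomes and X) in KO NO against WT NO (circles) and KO RA against WT RA (squares), with Pbx2 (diamonds) and Pknox1 (triangles) at chromosome 17. The chromosome 17 medians, −0.47 and −0.46, are the lowest of all chromosomes plotted, and Pbx2 lies below both of them.

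Pbx3 was the other abundant Pbx gene and showed another order of groups. It was at 66.7, 61.2 and 57.1 CPM in WT NO and at 45.7, 47.5 and 47.5 CPM in WT RA. In KO NO it was at 35.8, 45.4 and 48.9 CPM and in KO RA at 57.4, 66.6 and 63.0 CPM. All WT RA libraries were thus below all WT NO libraries, while all KO RA libraries were above all KO NO libraries. The log2 fold change with RA was −0.39 in WT (SE 0.18, edgeR adjusted p = 0.410) and 0.52 in KO (SE 0.18, edgeR adjusted p = 0.121; 0.50 and adjusted p = 0.0345 without KO RA replicate 3). The difference of the RA responses was 0.92 (SE 0.26, edgeR adjusted p = 0.382), and it was 0.89 (adjusted p = 0.0510) without KO RA replicate 3. DESeq2 gave an adjusted p of 0.00416 and limma-voom 0.0136 for the same difference. Between genotypes the Pbx3 log2 fold change was −0.51 in KO NO against WT NO (SE 0.18, edgeR adjusted p = 0.272; adjusted p = 0.0382 without KO RA replicate 3) and at 0.41 (SE 0.18, edgeR adjusted p = 0.277) in KO RA against WT RA.

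Pbx4, a Pbx gene known for its expression in the testis, was at low levels throughout. It was at 3.73, 1.40 and 4.12 CPM in WT NO, at 6.06, 5.97 and 5.11 CPM in WT RA, at 3.49, 2.01 and 3.21 CPM in KO NO and at 2.66, 3.51 and 1.09 CPM in KO RA. The WT RA libraries were above all others, and the other groups overlapped. Pbx4 passed no edgeR test (KO RA against WT RA: log2 fold change −1.21, SE 0.47, adjusted p = 0.229).

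The Pbx genes differed in their order of levels between groups. Summed over Pbx2, Pbx3 and Pbx4, the mean level was 116 CPM in WT NO (SD 10.5), 131 CPM in WT RA (SD 9.11), 78.9 CPM in KO NO (SD 7.78) and 99.9 CPM in KO RA (SD 8.91), n = 3 each. The share of Pbx2 in this sum was 42.6% to 44.8% in WT NO and 57.8% to 62.0% in WT RA. In KO it was 37.9% to 43.9% without induction and 29.8% to 39.5% after RA. The ratio of Pbx3 to Pbx2 was accordingly 1.18 to 1.26 in WT NO, 0.545 to 0.646 in WT RA, 1.17 to 1.54 in KO NO and 1.47 to 2.31 in KO RA. Pbx2 was the larger of the pair in every WT RA library and Pbx3 in every other library.

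**Figure D3:**
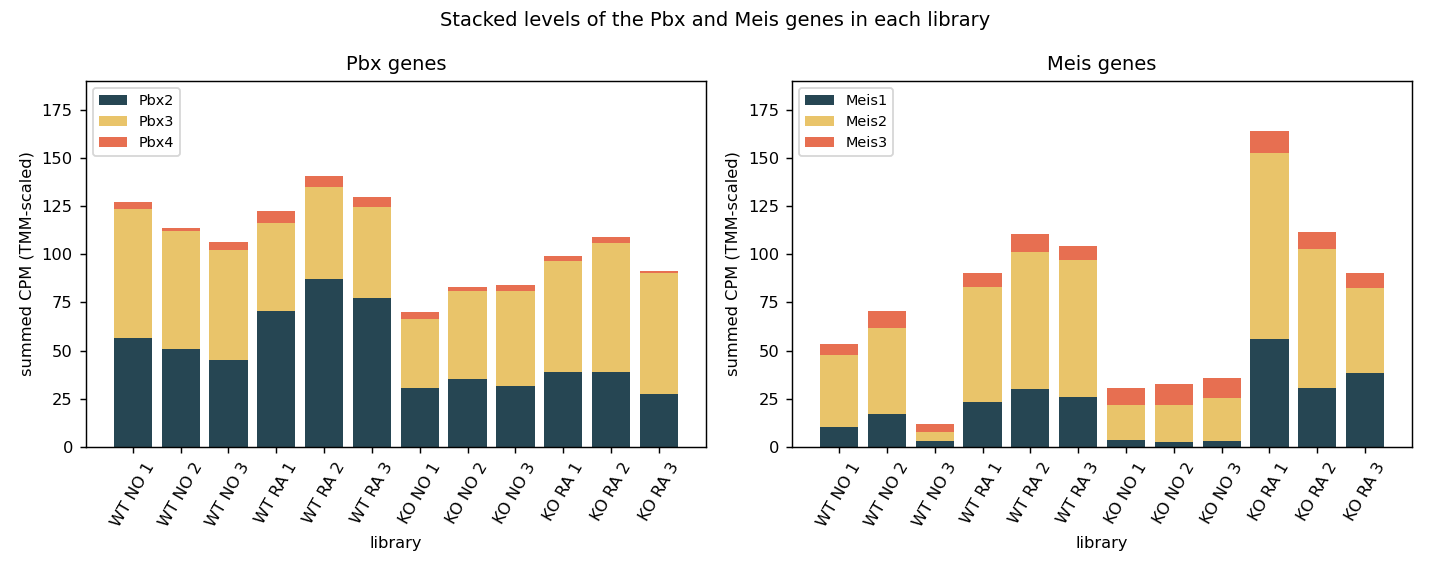
Stacked levels of the Pbx genes (left) and the Meis genes (right) in CPM (TMM-scaled, axis from 0), 1 bar per library of WT NO, WT RA, KO NO and KO RA. The Meis sum was 30.8 to 35.7 CPM in KO NO and 90.1 to 164 CPM in KO RA, and in WT NO it ranged from 11.7 to 70.7 CPM.

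Meis1, a Pbx partner and early target of RA in many embryonic tissues, showed the widest relative range of the 8 genes. It was at 10.2, 17.1 and 3.11 CPM in WT NO and at 23.4, 29.8 and 25.7 CPM in WT RA. In KO NO it was at 3.78, 2.37 and 3.02 CPM and in KO RA at 56.2, 30.8 and 38.2 CPM. All RA libraries were above all NO libraries of both genotypes, and the KO RA libraries were above the WT RA libraries. In KO, Meis1 rose with RA by a log2 fold change of 3.77 (SE 0.53, 13.6-fold, edgeR adjusted p = 0.00395), and by 3.82 (adjusted p = 0.00164) without KO RA replicate 3. The RA response in WT was 1.37 (SE 0.48, edgeR adjusted p = 0.255). The difference between the responses was 2.39 (SE 0.68, edgeR adjusted p = 0.382), with adjusted p = 0.0348 by DESeq2 and 0.0118 by limma-voom, and 2.43 (edgeR adjusted p = 0.101) without KO RA replicate 3. In KO NO against WT NO the log2 fold change was −1.73 (SE 0.49, edgeR adjusted p = 0.145), with overlap at WT NO replicate 3. Without that library it was −2.15 (edgeR adjusted p = 0.0165). In KO RA against WT RA it was 0.67 (SE 0.47, edgeR adjusted p = 0.482).

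Meis2 stood above Meis1 in every library. It was at 37.4, 44.7 and 4.79 CPM in WT NO, at 59.6, 71.3 and 71.2 CPM in WT RA, at 17.8, 19.6 and 22.1 CPM in KO NO and at 96.5, 71.8 and 44.2 CPM in KO RA. All RA libraries exceeded the NO libraries of their own genotype. With libraries scaled by their totals alone, KO RA replicate 3 was at 17.4 CPM, below the KO NO libraries (20.6 to 26.6 CPM). In KO the RA response was 1.84 (SE 0.60, edgeR adjusted p = 0.0998), and it passed the test without KO RA replicate 3 (2.07, adjusted p = 0.0475) or without WT NO replicate 3 (1.84, adjusted p = 0.00483). In WT it was 1.22 (SE 0.59, edgeR adjusted p = 0.436). Between genotypes the log2 fold change was −0.54 without induction (SE 0.58, edgeR adjusted p = 0.846) and 0.07 after RA. WT NO replicate 3 was the lowest library of the group for Meis1, Meis2 and Meis3.

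Meis3 showed a different order from its relatives. It was at 5.67, 8.95 and 3.78 CPM in WT NO, at 7.21, 9.36 and 7.31 CPM in WT RA, at 9.26, 10.5 and 10.6 CPM in KO NO and at 11.1, 8.99 and 7.73 CPM in KO RA. All KO NO libraries were above the WT NO libraries (log2 fold change 0.72, SE 0.30, edgeR adjusted p = 0.353). Its RA responses were 0.38 in WT and −0.12 in KO, with overlapping groups. Meis3 made up 29.6% to 32.2% of the summed Meis levels in KO NO and 6.81% to 8.58% in KO RA, where the sum was higher. In the same sum the share of Meis1 was 7.30% to 12.3% in KO NO and 27.6% to 42.4% in KO RA, against 19.2% to 26.6% in WT NO and a mean of 25.8% in WT RA. The ratio of the Meis sum to the Pbx sum was 0.110 to 0.623 in WT NO and 0.736 to 0.802 in WT RA. It was 0.392 to 0.440 in KO NO, within the range of WT NO, and 0.986 to 1.65 in KO RA.

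Summed markers of mesenchymal cells, a source of Meis expression in embryos, were higher in KO RA than in KO NO, as the Meis sum was. Within groups, the libraries did not follow one order in the marker sum and the Meis sum. The marker sum was 43.6 to 98.9 CPM in WT NO, 96.0 to 265 CPM in WT RA, 46.8 to 48.1 CPM in KO NO and 202 to 1042 CPM in KO RA. The 1042 CPM was that of replicate 3, the KO RA library with the lowest Meis sum (90.1 CPM). In WT NO the library with the highest marker sum (replicate 3, 98.9 CPM) had the lowest Meis sum (11.7 CPM). Tagln and Acta2 made up most of both of these marker sums. They were at 763 and 210 CPM in KO RA replicate 3 and at 46.4 and 31.3 CPM in WT NO replicate 3. Both libraries were the lowest of their group for Twist1 (34.9 and 17.3 CPM) and Col3a1 (15.9 and 0.488 CPM), but not for all other markers. Of the 8 mesenchymal markers, 1 was at or under 3 counts in each KO NO library and 0 were so in the other groups. Summed neuronal markers were 85.7 to 149, 155 to 186, 113 to 120 and 153 to 222 CPM in the same order. Summed endothelial markers were 0.563 to 2.81, 1.34 to 2.38, 1.07 to 2.01 and 4.46 to 13.9 CPM, and summed neural progenitor markers 254 to 301, 276 to 315, 255 to 289 and 172 to 338 CPM. In KO RA against KO NO, 4 of 8 mesenchymal, 2 of 8 neuronal, 2 of 3 tested endothelial (5 listed) and 3 of 6 neural progenitor markers were called higher. In that comparison 3.89% of all tested genes were called higher. Without KO RA replicate 3 the counts were 5 of 8, 3 of 8, 4 of 5 tested and 3 of 6, beside 8.48%, and 1 neural progenitor marker was called lower. The part of these markers in the Meis values was not tested.

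Pknox1, also known as Prep1, varied little between groups. It was at 6.44, 7.21 and 6.07 CPM in WT NO, at 8.56, 9.12 and 7.45 CPM in WT RA, at 5.71, 7.88 and 7.48 CPM in KO NO and at 10.7, 6.61 and 4.56 CPM in KO RA. Its log2 fold changes lay between −0.20 and 0.35 in the 4 comparisons, and the ranges did not overlap only in WT RA against WT NO (0.35, SE 0.29, edgeR adjusted p = 0.710). Pknox2 was at 19.4, 20.1 and 21.9 CPM in WT NO and at 9.33, 6.60 and 15.05 CPM in WT RA. In KO NO it was at 15.6, 13.1 and 18.7 CPM and in KO RA at 13.9, 11.96 and 5.75 CPM. The WT NO libraries were above those of all other groups. Its RA response in WT was −0.99 (SE 0.35, edgeR adjusted p = 0.271), and it passed the test without KO RA replicate 3 (−0.98, adjusted p = 0.0366). In KO it was −0.58 (SE 0.35, edgeR adjusted p = 0.325).

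**Figure D4:**
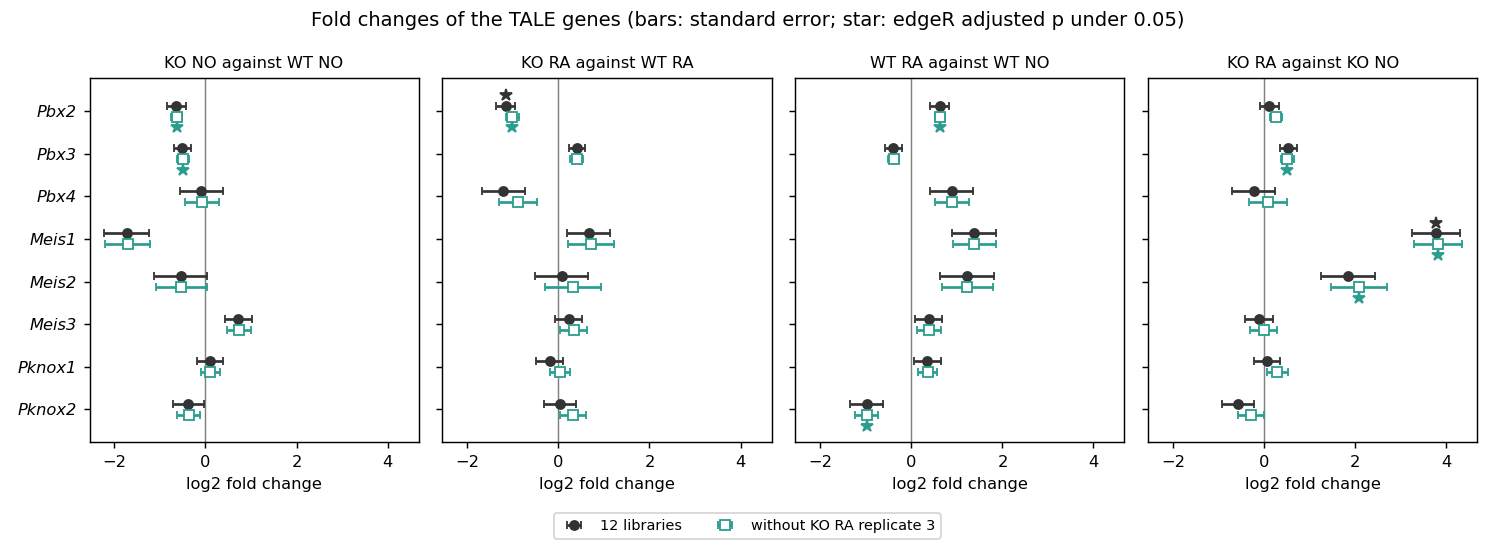
Log2 fold changes of the 8 genes in 4 comparisons, with bars of 1 standard error, from the fit to 12 libraries (filled circles) and from the fit without KO RA replicate 3 (open squares), and stars where the edgeR adjusted p was under 0.05. With 12 libraries the stars are at Pbx2 in KO RA against WT RA (−1.16) and Meis1 in KO RA against KO NO (3.77).

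In counts, 0 of 8 genes passed the test in KO NO against WT NO, where 1.14% of all tested genes did, and 1 passed in KO RA against WT RA (Pbx2, lower), where 1.24% did and 0.358% were called lower. For WT RA against WT NO the count was 0, beside 0.406% of all genes, and for KO RA against KO NO it was 1 (Meis1, higher), beside 5.48%, or 3.89% called higher. The difference of the RA responses was called for 0 genes, beside 0% of all tested genes. At an unadjusted p under 0.05, 4 of the 8 genes stood in KO NO against WT NO (12.2% of all tested genes), 3 in KO RA against WT RA (17.6%), 3 in WT RA against WT NO (12.5%), 3 in KO RA against KO NO (25.2%) and 2 in the difference (8.62%). In the same order, DESeq2 called 3, 2, 1, 3 and 2 of the 8 genes, beside 6.50%, 8.41%, 5.91%, 16.8% and 1.98% of the genes it gave an adjusted p. Limma-voom called 4, 1, 5, 3 and 2, beside 21.6%, 18.1%, 21.6%, 27.5% and 5.97% of all tested genes. In the comparison of groups that did not overlap, 4 of 8 genes were apart in KO NO against WT NO (30.7% of all tested genes), 4 in KO RA against WT RA (20.9%), 7 in WT RA against WT NO (29.1%) and 3 in KO RA against KO NO (30.2%). The median log2 fold change of the 8 genes was −0.44 in KO NO against WT NO, 0.05 in KO RA against WT RA, 0.50 in WT RA against WT NO and 0.08 in KO RA against KO NO. Over all tested genes these medians were −0.02, 0.09, −0.01 and 0.11. Without KO RA replicate 3, 2 genes passed in KO NO against WT NO, 1 in KO RA against WT RA, 2 in WT RA against WT NO and 3 in KO RA against KO NO, beside 8.78%, 9.85%, 10.8% and 16.0% of all tested genes. The difference was then called for 0 of the 8 and for 1.34% of all tested genes. Comparisons that share a group are not independent of each other.

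The promoters of Pbx2 and Pbx3 are shown because the genotype log2 fold changes of these genes had opposite signs after RA (−1.16, which passed the test, and 0.41, which did not). The windows hold the 250 bases before the start of the canonical transcript on GRCm39 and no annotated exon, and the capitals mark GC boxes (GGGCGG) and the CCAAT box on either strand.
Pbx2 promoter (chr17:34810940-34811189, + strand): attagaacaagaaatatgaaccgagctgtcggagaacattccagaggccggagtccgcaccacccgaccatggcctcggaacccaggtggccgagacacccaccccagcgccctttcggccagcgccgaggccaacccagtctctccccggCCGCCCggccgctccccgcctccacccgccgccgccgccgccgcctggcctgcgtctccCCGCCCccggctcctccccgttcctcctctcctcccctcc
Pbx3 promoter (chr2:34262773-34263022, - strand): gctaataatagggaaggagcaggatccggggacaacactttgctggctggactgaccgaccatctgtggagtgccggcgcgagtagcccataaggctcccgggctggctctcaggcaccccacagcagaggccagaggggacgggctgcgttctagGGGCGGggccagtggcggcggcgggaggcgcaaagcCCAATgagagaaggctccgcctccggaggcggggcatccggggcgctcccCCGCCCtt
GC content was 71.6% in the Pbx2 window and 68.4% in the Pbx3 window, against a median of 53.2% over 21770 promoters of this length. GGGCGG lay at −99 and −40 of Pbx2 and at −94 and −8 of Pbx3, and CCAAT at −58 of Pbx3. Over all promoters, 36.32% held GGGCGG and 36.5% held CCAAT. Among the 8 genes, none held AGGTCA (13.12% of all promoters) or TGATNNAT (7.01%), and TGACAG (14.6%) was in Pknox2 only.

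Of the 28 pairs among the 8 genes, Meis1 and Meis2 had the highest correlation of log2(CPM + 1) over the 12 libraries (Pearson's r = 0.870, and 0.895 without KO RA replicate 3). Pbx2 and Pbx4 followed with r = 0.700, and Meis1 and Pknox2 had the lowest, r = −0.564. Without KO RA replicate 3, Meis2 and Pknox1 followed (r = 0.633), ahead of Pbx2 and Pbx4 (r = 0.614). Pknox1 and Pknox2 were then lowest (r = −0.564, against 0.012 with 12 libraries), and Meis1 and Pknox2 were at −0.497. The libraries share groups, so these are descriptions. By the same measure over the 12 libraries, Bmp2k (r = 0.970), Rcan2 (r = 0.961) and Rassf10 (r = 0.955) were most like Meis1. Astn1 (r = 0.955), Peg12 (r = 0.932) and Selenow (r = 0.927) were most like Meis2. Nearest to Pbx2 came ENSMUSG00000120308 (r = 0.975), Spaca6 (r = 0.969) and Arhgef28 (r = 0.968), and nearest to Pbx3 came Mapre1 (r = 0.877), Pfn2 (r = 0.841) and Bpnt2 (r = 0.829). Tmem53 (r = 0.917), Gps2 (r = 0.885) and 2810408A11Rik (r = 0.877) were nearest to Pbx4, and Gm7439 (r = 0.934), Slc25a36 (r = 0.915) and Rundc3b (r = 0.908) to Meis3. For Pknox1 they were Clcn6 (r = 0.913), Tmem260 (r = 0.889) and Ptp4a3 (r = 0.882), and for Pknox2 Zswim3 (r = 0.955), Iws1 (r = 0.943) and Clspn (r = 0.936).

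Lists of genes that act with TALE factors were counted beside the 8 genes. Of 15 Hox genes of paralogue groups 1 to 5, the partners of Pbx in the anterior body, 13 were tested. In WT RA against WT NO, Hoxb2 and Hoxb4 rose, and in KO RA against KO NO Hoxa2, Hoxb2, Hoxb3, Hoxb4 and Hoxa5 rose, beside 0.321% and 3.89% of all tested genes called higher. The WT calls held in 10 (Hoxb2) and 5 (Hoxb4) of 19 alternative settings, and in 5 and 1 of the 12 fits with a library left out. In KO, Hoxb2 held in 18 of 19 settings and Hoxb3 in 15 of 18, whereas Hoxa2 held in 10 of 19, Hoxb4 in 9 of 18 and Hoxa5 in 5 of 19. With all 12 libraries none passed in either genotype comparison. Without KO RA replicate 3, when 14 were tested, 8 rose in WT RA and 4 in KO RA, beside 5.65% and 8.48% of all tested genes called higher, and Hoxa3 was higher in KO NO than WT NO. The counts of Hoxb4 were 0 to 1 in all NO libraries, 21 to 25 in WT RA and 5 to 10 in KO RA. Those of Hoxb2 were 0 to 6 in the NO libraries, 79 to 160 in WT RA and at least 32 in KO RA. Hoxa5 (edgeR adjusted p = 0.0499) had 61 counts in KO RA replicate 3 and 13 and 28 in the other KO RA libraries, and it was not called without that library (adjusted p = 0.0880). Exons of 9 of the 13 Hox genes overlap those of another gene, so their counts are uncertain. The median log2 fold change of the list was 4.93 in WT RA against WT NO and 3.81 in KO RA against KO NO, beside −0.01 and 0.11 over all tested genes, but these fitted values depend on the prior count where genes were near 0 counts in the NO groups. Of the 2 tested Hox genes of groups 6 to 10, 0 were called (15 listed). Without KO RA replicate 3, 6 were tested and 2 (Hoxb7 and Hoxb8) were called higher in WT RA against WT NO.

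Of 9 other TALE genes, 7 were tested. Exons of 6 of these 7 overlap those of another gene, so their counts are uncertain as well. Irx1, Irx2, Irx3 and Irx5, which pattern the neural tube, rose in KO RA against KO NO, by log2 fold changes of 4.57, 2.85, 4.05 and 2.57 (edgeR adjusted p = 0.00097, 0.0340, 0.0101 and 0.0218). Of all tested genes, 3.89% were called higher there, and 0.321% in WT RA against WT NO. Without KO RA replicate 3, when 8 were tested, 4 rose in KO and 3 in WT, beside 8.48% and 5.65%. The Irx1 call held in 19 of 19 alternative settings, that of Irx2 in 8, Irx3 in 15 and Irx5 in 14 of 20. In WT, Irx1 was called as well (2.56, edgeR adjusted p = 0.0403), but this held in 6 of 19 settings and in 1 of the 12 fits with a library left out. Irx1 was at 0.146 to 0.530 CPM in KO NO and 3.96 to 10.1 CPM in KO RA. Irx3 was at 11.01 and 11.4 CPM in 2 KO RA libraries and at 0.991 CPM in replicate 3. No listed TALE gene passed between genotypes, but without KO RA replicate 3 Irx1 was lower in KO NO (−2.16, edgeR adjusted p = 0.00751) and Irx3 higher in KO RA (2.02, edgeR adjusted p = 0.00282). The list's median was 2.57 in KO and 1.02 in WT. Pax6, a progenitor gene with a TALE-bound enhancer, was lower in KO than in WT, by −2.50 without induction (edgeR adjusted p = 0.0264) and by −2.21 after RA (edgeR adjusted p = 0.0396). The calls held in 11 and 6 of 20 alternative settings, and in 5 and 2 of the 12 fits with a library left out, at log2 fold changes of −2.96 to −2.25 and −2.55 to −1.91. Pax6 was 1 of 6 tested genes of 7 listed with enhancers known to bind TALE proteins, of which Hoxa2, Hoxb2 and Hoxb4 also stand above. It was the only one called between genotypes, beside 1.14% of all tested genes without induction and 1.24% after RA. The median of these 6 was 0.39 without induction and −0.05 after RA, beside −0.02 and 0.09 over all tested genes. Without KO RA replicate 3, 2 were called higher and 1 lower in KO NO against WT NO, beside 8.78% of all tested genes. Of 8 proteins that bind or regulate Pbx and Meis, 0 were called in any comparison by edgeR, and at an unadjusted p under 0.05 at most 2 stood in a comparison. Without KO RA replicate 3, at most 3 were called in a comparison, in WT RA against WT NO, where all 3 were lower, beside 5.13% of all tested genes called lower. The 2 highest of the 8 were Ncor1, at 77.2 to 307 CPM, and Hdac1, at 123 to 230 CPM.

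**Figure D5:**
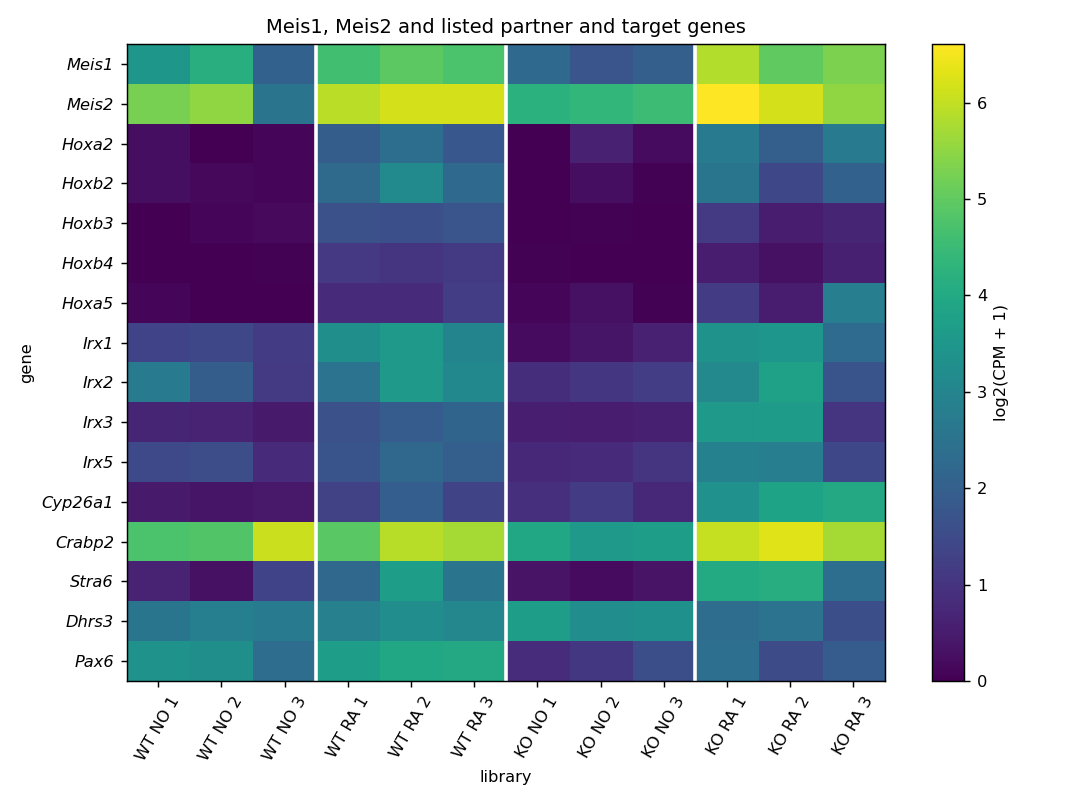
Levels of Meis1, Meis2 and partner and target genes that were called in at least 1 comparison, as log2(CPM + 1) by colour, with genes in rows and the 12 libraries in columns, white lines between WT NO, WT RA, KO NO and KO RA. Hoxb4 counts were 0 to 1 in the NO libraries, Irx1 was at 3.96 to 10.1 CPM in KO RA, and Pax6 was lower in every KO library than in the WT libraries of the same condition.

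Genes of the RA response were read as a check of the treatment. Cyp26a1, which breaks down RA, was at 0.296 to 0.387 CPM in WT NO, 1.49 to 2.91 CPM in WT RA, 0.670 to 1.27 CPM in KO NO and 9.21 to 14.9 CPM in KO RA. It rose with RA by 2.49 in WT (edgeR adjusted p = 0.0339) and 3.72 in KO (edgeR adjusted p = 0.00062), and was higher in KO RA than in WT RA (2.64, edgeR adjusted p = 0.0097). In KO, Crabp2 (2.38) and Stra6 (5.68), which carry RA and take up retinol, rose and Dhrs3 (−1.43), a retinaldehyde reductase, was lower (edgeR adjusted p = 0.00873, 0.00474 and 0.0256). The Cyp26a1 call in WT held in 7 of 19 alternative settings and in 2 of the 12 fits with a library left out, that in KO in 19 of 19, and that between genotypes in 16 of 19. Those of Crabp2, Stra6 and Dhrs3 held in 17 of 20, 19 of 19 and 15 of 20. Of 8 listed genes, 7 were tested, and 1 was called in WT and 4 in KO (3 higher and 1 lower), beside 0.406% and 5.48% of all tested genes. Without KO RA replicate 3, 8 were tested and 3 were called in WT (Cyp26a1, Stra6 and Rarb) and 4 in KO, beside 10.8% and 16.0% of all tested genes.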

How the data were processed

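mRNA from 12 libraries of NE-4C cells was sequenced by the authors, who ran nf-core/rnaseq with STAR and Salmon on GRCm39. The submitters' processing notes name DESeq2 as a tool. The values in the deposited table are estimated counts that the authors call scaled, and how they were scaled is not given in the sources used here. In 3851 genes above 0 in 1 library, values fell with exonic length (Spearman correlation −0.685), and library totals differed. They were therefore taken as scaled from TPM to each library's total, which corrects for length but does not normalize across libraries. Intervals for counting error are not given, as the values are not numbers of fragments. Groups came from the sample records, and where columns lacked the condition the titles gave it.

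Counts were rounded and tested in R 4.3.3 with edgeR 4.0.16 (TMM factors, filterByExpr at its defaults, robust quasi-likelihood fit with 1 coefficient per group over all 12 libraries, 8 residual degrees of freedom). Benjamini-Hochberg adjustment ran over 16502 genes, and a gene was called at an adjusted p under 0.05. Rows at 3 counts or fewer in a library were taken as at the floor. P-values measure the spread between 3 passages per group, estimated for each gene over all 12 libraries together. A library can therefore alter comparisons of groups that it is not in. For Pbx2 in KO NO against WT NO the SE was 0.20, and 0.12 without KO RA replicate 3. The members and gene lists were chosen with earlier results of these data known. The named genes were the 8 members, Faf2, each listed gene called in at least 1 comparison, or the 2 of highest mean CPM where none was, and the 3 genes most like each member. Other genes named (Nes, Sox1, Sox2, Otx2, Cdh2, Pou5f1, Hoxa3, Hoxb7, Hoxb8, Rarb, Tagln, Acta2, Twist1, Col3a1) were chosen after their values were seen. Some genes of these lists are not reported here. Alternatives were DESeq2 1.42.0, limma 3.58.1 (voom with sample weights), DESeq2 size factors, library totals alone, other filters, the groups compared alone, a replicate block and each library left out. Positions and sequences came from the GENCODE annotation and genome of GRCm39, a later release than the authors' annotation, read with Python 3.11.15. Statistics were tested on simulated data with a smaller spread between libraries than these data (common dispersion 0.215) and no library like KO RA replicate 3. That check does not give the power or the rate of false calls in these data.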

Additional observations from a re-analysis of the deposited data

Results flagged for a closer look

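Pbx3 stood out because its RA response ran in opposite directions in the 2 genotypes. All 3 WT RA libraries were below all 3 WT NO libraries, and all 3 KO RA libraries were above all 3 KO NO libraries. The RA response in KO minus that in WT was 0.92 on the log2 scale (SE 0.26), which edgeR's quasi-likelihood test did not call (adjusted p = 0.382). With libraries scaled by their totals alone, Pbx3 was at 24.8 CPM in KO RA replicate 3 and at 73.2 and 81.6 CPM in the other KO RA libraries, against 41.6, 49.9 and 58.7 CPM in KO NO, so the KO groups then overlapped.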

How the results depend on the processing

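Of 792 values of the 8 genes in 5 comparisons under the alternatives, 734 kept their direction and side of the threshold, 8 lost the call, 31 gained it and 19 turned sign. In KO NO against WT NO, 0 of 8 genes were called, but DESeq2 called 3, limma-voom 4 and the 6 libraries alone 1 (0 to 2 with a library left out: 1 without WT NO replicate 3 and 2 without KO RA replicate 3). In KO RA against WT RA, 1 was called, and 0 with library totals alone, no filter, the 6 libraries alone or the replicate block, 2 with DESeq2 (0 to 1 with a library left out: 0 without WT RA replicate 1, 2 or 3 or KO NO replicate 2). Pbx2 there ranged from −1.23 to −0.97, with adjusted p from 3.37e-10 to 0.495, and passed in 12 of 20 settings. In WT RA against WT NO, 0 became 1 with DESeq2 and 5 with limma-voom (0 to 2 with a library left out, 2 without KO RA replicate 3). In KO RA against KO NO, 1 became 3 with DESeq2 and limma-voom (1 to 3 with a library left out: 2 without WT NO replicate 3 and 3 without KO RA replicate 3), and Meis1 passed in 20 of 20 settings (adjusted p up to 0.0331). For the difference of the RA responses, 0 became 2 with DESeq2 and limma-voom (0 with any library left out). The cause of these changes was not tested, except that leaving out a library or group leaves fewer samples. It also changes the libraries from which the shared spread is estimated, for comparisons of other groups as well.

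Signs turned for small values. Pbx4 in KO NO against WT NO was 0.16 with limma-voom (−0.43 to 0.18 with a library left out), and in KO RA against KO NO 0.14 with limma-voom (−0.58 to 0.079). With library totals alone, Pknox1 was 0.0044 in KO RA against WT RA (−0.54 to 0.034 with a library left out), and in KO RA against KO NO Pbx2 was −0.058 and Pknox1 −0.052 (Pknox1 −0.29 to 0.28). Meis2 in KO RA against WT RA was −0.029 with the replicate block (−0.18 to 0.31 with a library left out), and Pknox2 ranged from −0.21 to 0.41 and Faf2 in WT RA against WT NO from −0.19 to 0.12 with a library left out. Library totals alone moved the median of all genes from −0.01 to −0.26 in WT RA against WT NO and from 0.11 to −0.17 in KO RA against KO NO. Of all genes, edgeR called 188, 205, 67, 904 and 0 in the 5 comparisons (40 to 1521, 19 to 1707, 0 to 1868, 194 to 2776 and 0 to 232 with a library left out), DESeq2 1015, 1315, 924, 2632 and 309, limma-voom 3566, 2987, 3562, 4531 and 985, and the replicate block 56, 59, 10, 467 and 0. Same-numbered libraries did not deviate together (18 pairs, correlations −0.238 to 0.0957), so no pairing by replicate number was seen. A small shared effect could be missed by this measure, and the labels do not say what the number marks. With the replicate number as a block, the Pbx2 call in KO RA against WT RA had an edgeR adjusted p of 0.0642. Of 128 mean levels under the alternatives, 7 moved by more than 1 SD, all with library totals alone. Most of the 128 were means with 1 of 3 libraries left out. Leaving out 1 of 3 values cannot move a mean by 1 SD, so those means could not count as moved.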
